A study of Mus musculus with 32 samples.

Results

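The 10 genes described here encode cyclins, cyclin-dependent kinases (Cdks), the small Cdk-binding Cks proteins and the oocyte kinase Wee2. They were the rows whose gene symbol was Ccna2, Ccnb1, Ccnb2, Ccne1, Ccne2, Cdk1, Cdk2, Cks1b, Cks2 or Wee2, that is 10 of the 34223 genes in the table of normalised read counts. All 10 were detected in all 32 embryos and passed the filter on low values, a normalised count of at least 10 in at least 8 embryos, which 15559 genes passed. Each library was 1 wild-type mouse embryo at the late 2-cell stage, cultured to 28 h after in vitro fertilization. The 16 Val_LNA embryos had been injected with an antisense oligonucleotide containing locked nucleic acid (LNA) against tRFValCAC, which derives from a valine tRNA, and the 16 Ctrl_LNA embryos with a scrambled LNA oligonucleotide. Both groups also received the message for a fusion of histone H3.3 with green fluorescent protein, and embryos with fluorescence were kept. The fragment itself is not seen by sequencing of polyadenylated RNA, so the files hold no measure of how far it was inhibited. Matings and days of injection are not in the labels, and p-values therefore measure only the spread between these embryos, which may be technical in part.

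A Cdk is active only when bound to a cyclin. Cyclin E with Cdk2 drives entry into S phase, cyclin A2 acts in S phase and before mitosis, and B-type cyclins with Cdk1 form the maturation-promoting factor that drives meiosis of the oocyte and mitosis of the embryo. Cks proteins dock on these kinases and help them reach multiply phosphorylated substrates, and Wee-type kinases hold Cdk1 off by phosphorylating it. The late 2-cell embryo still holds RNA stored in the egg and has begun to transcribe its own genome, so a transcript measured at this stage can be maternal, embryonic or both, and the files do not separate them.

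The 32 libraries held 2592925 to 6259870 reads. Val_LNA libraries averaged 4392531 ± 947194 and Ctrl_LNA libraries 4837221 ± 686052 reads (SD over 16 embryos a group). The member genes had between 33 and 14290 reads in every embryo, except Ccnb2 in Ctrl_LNA 48 with 2 reads. That embryo stood apart, with 7276 genes detected where the other 31 had between 16687 and 20200, and results are given with and without it. All 19 measured 2-cell transcripts and all 19 oocyte transcripts on marker lists had a mean of at least 10 in both groups. Summed 2-cell transcripts had a median of 19161 in Val_LNA and 15511 in Ctrl_LNA embryos (13311 to 49376 in Val_LNA and 8703 to 49498 in Ctrl_LNA). Of 14 blastocyst transcripts 8 had a mean of at least 10 in each group, and their sum had a median of 1123 in Val_LNA and 1681 in Ctrl_LNA embryos (669 to 1550 in Val_LNA and 795 to 4734 in Ctrl_LNA). The part of these differences in the results was not tested. Summed cumulus and granulosa transcripts reached at most 437 normalised counts in Val_LNA and at most 719 in Ctrl_LNA embryos, and their part in the results was not tested. The labels number the libraries in 4 unbroken runs of 8, and the comparison of 1 to 8 with 31 to 38 is called the lower run here and that of 13 to 20 with 43 to 50 the upper run. The labels do not call these runs batches and do not link a run of Val_LNA numbers to one of Ctrl_LNA numbers. Each of the 4 runs of 8 holds 1 group only. A difference between runs of numbers therefore cannot be told apart from the group difference, also inside the lower and the upper run.

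Among the members, Cks1b RNA rose and Ccne1 RNA fell in Val_LNA embryos, and the other 8 did not pass the test. Thus 1 of 10 was called higher, where 0.881% of all tested genes were, and 1 of 10 lower, where 1.31% were (limma on log2 values, Benjamini-Hochberg adjusted p under 0.05). The median log2 fold change was 0.02 over the members, with 6 above 0 and 4 below, and 0.26 over all tested genes. Without Ctrl_LNA 48 the medians were 0.05 over the members and 0.07 over all genes, and Cks1b and Ccne1 were again the 2 called, where 1.57% of all genes were called higher and 2.63% lower. In the same direction, edgeR's quasi-likelihood test on the recovered reads also called Cks1b (0.83, adjusted p = 0.0337) and Ccne1 (-1.29, adjusted p = 0.0423), with 0.186% of all genes higher and 1.05% lower. A normalised count gives the level of a gene relative to the other RNA of its embryo. Whole embryos were lysed, so total RNA, cell number and differences between the cells of an embryo were not measured.

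**Figure D1:**
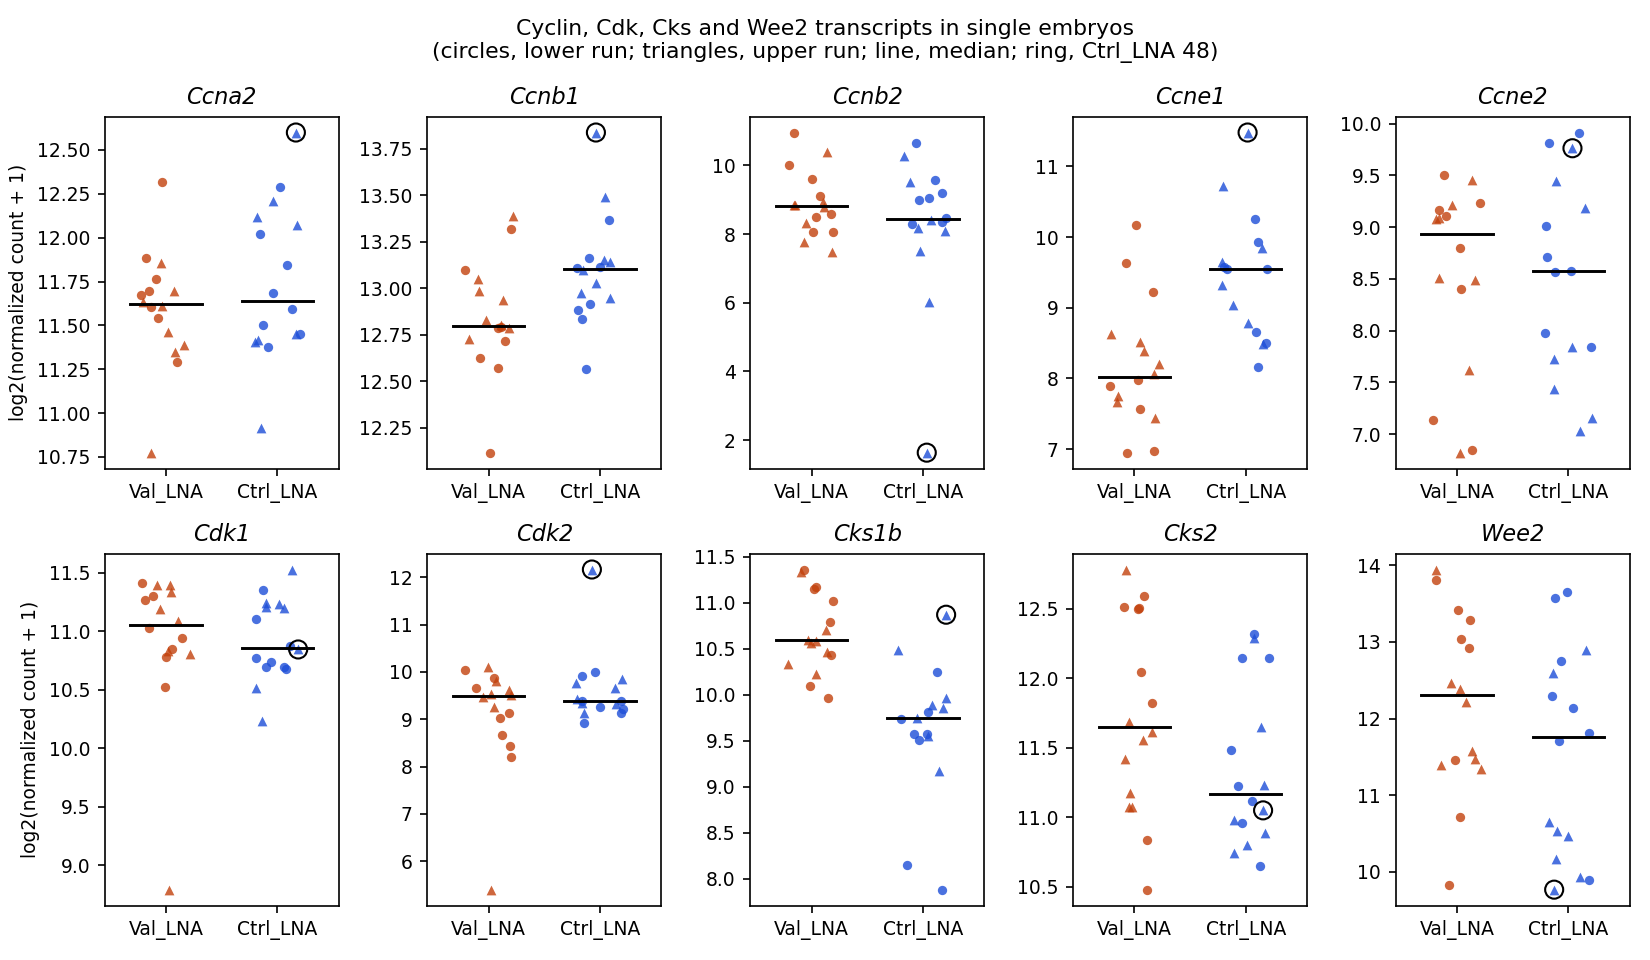
Log2(normalised count + 1) of each member in single embryos, with 16 Val_LNA embryos on the left and 16 Ctrl_LNA embryos on the right of each panel; circles are embryos of the lower run, triangles those of the upper run, horizontal lines medians, and the ring marks Ctrl_LNA 48. All 16 Val_LNA embryos lay above the Ctrl_LNA median for Cks1b, and 14 of 16 lay below it for Ccne1.

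Cks1b encodes Cks1, which besides binding Cdks is a cofactor of the Skp2 ubiquitin ligase for the Cdk inhibitor p27. The gene spans chr3:89415472-89418383 on the minus strand (GENCODE M21, build GRCm38). Its lowest, median and highest normalised counts were 995, 1541 and 2627 in Val_LNA embryos, against 235, 857 and 1868 in Ctrl_LNA embryos. The groups overlapped, but 12 of 16 Ctrl_LNA embryos lay below the lowest Val_LNA embryo and 5 Val_LNA embryos lay above the highest Ctrl_LNA embryo, which was Ctrl_LNA 48. The 2 lowest embryos of all were Ctrl_LNA 32 with 235 and Ctrl_LNA 34 with 283. The log2 fold change was 1.05 ± 0.22 (SE; limma adjusted p = 0.0041), and 1.13 ± 0.20 without Ctrl_LNA 48 (limma adjusted p = 0.0006). Within the runs it was 1.44 in the lower (limma adjusted p = 0.0352) and 0.66 in the upper run (limma adjusted p = 0.421), and the difference between the runs was -0.78 ± 0.42 (limma interaction, adjusted p = 0.817). The lower run called 0.623% of all genes higher and 0.533% lower, and the upper run 0.0129% and 0.212%, or 0.045% and 0.797% without Ctrl_LNA 48. Scaling each embryo to its median gene gave 0.60 (limma adjusted p = 0.609) with all embryos, where 0.392% of genes were called higher and 1.93% lower, and 1.06 (limma adjusted p = 0.0026) without Ctrl_LNA 48.

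Cks2, the paralogue of Cks1b, is needed in mice for oocytes to leave the first meiotic metaphase. It lies at chr13:51645232-51650660 on the plus strand. Its lowest, median and highest counts were 1427, 3208 and 7033 in Val_LNA embryos and 1603, 2305 and 5109 in Ctrl_LNA embryos, and 12 of 16 Val_LNA embryos lay above the Ctrl_LNA median. The ranges overlapped over most of their length, and the log2 fold change of 0.37 ± 0.22 did not pass (limma adjusted p = 0.42, 95% interval -0.07 to 0.82). The ratio of Cks1b to Cks2 inside each embryo, which does not depend on how that embryo was scaled, averaged -1.05 ± 0.34 on the log2 scale over the 16 Val_LNA embryos and -1.73 ± 0.98 over the 16 Ctrl_LNA embryos (SD). The difference of 0.68 passed a two-sided permutation test adjusted over 4 such ratios (adjusted p = 0.0199), and 13 of 16 Val_LNA embryos had a ratio above the Ctrl_LNA median. The medians lay closer, at -1.01 in Val_LNA and -1.41 in Ctrl_LNA embryos, and the lowest Ctrl_LNA ratio was -4.17. Without Ctrl_LNA 48 the difference of means was 0.78 (permutation test, adjusted p = 0.0059). In the runs taken alone the difference was 1.03 in the lower (exact permutation, adjusted p = 0.0634) and 0.32 in the upper run (exact permutation, adjusted p = 0.26).

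The promoters of the Cks genes and of Ccne1, taken here as the 250 bases before the RefSeq start (RefSeq, GRCm38.p6), are shown because they belong to the 2 called members and to the paralogue beside which Cks1b was measured. Capitals mark the CCAAT box (CCAAT) and the CHR element (TTTGAA) on either strand. Both motifs are known from genes expressed at the G2 to M transition. The Cks1b window is chr3:89418292-89418541 (minus strand), the Cks2 window chr13:51644982-51645231 (plus strand) and the Ccne1 window chr7:38107491-38107740 (minus strand). For Cks1b and Ccne1 the RefSeq start lies inside the longer GENCODE gene.
Cks1b: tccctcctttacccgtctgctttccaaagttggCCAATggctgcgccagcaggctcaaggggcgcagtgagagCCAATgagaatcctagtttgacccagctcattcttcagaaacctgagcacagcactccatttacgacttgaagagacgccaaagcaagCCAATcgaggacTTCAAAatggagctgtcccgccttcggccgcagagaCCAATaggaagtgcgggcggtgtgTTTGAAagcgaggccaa
Cks2: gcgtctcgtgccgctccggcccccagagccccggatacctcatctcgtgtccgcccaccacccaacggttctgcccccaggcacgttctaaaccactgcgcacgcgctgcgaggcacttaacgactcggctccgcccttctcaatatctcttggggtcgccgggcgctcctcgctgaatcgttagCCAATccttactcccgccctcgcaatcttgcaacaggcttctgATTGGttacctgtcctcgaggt
Ccne1: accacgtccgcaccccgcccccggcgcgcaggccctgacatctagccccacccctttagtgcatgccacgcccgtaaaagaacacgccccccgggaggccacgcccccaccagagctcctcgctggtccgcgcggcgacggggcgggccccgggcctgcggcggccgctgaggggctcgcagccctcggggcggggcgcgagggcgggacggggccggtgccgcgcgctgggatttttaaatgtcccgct
The Cks1b window held 4 CCAAT boxes and 2 CHR elements, the Cks2 window 2 CCAAT boxes and no CHR element, and the Ccne1 window neither.

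Promoter entries were found for 8 of the 10 members, and those of Ccna2 and Ccne2 are named only. A CCAAT box was present in 7 of these 8 windows, all but that of Ccne1, and in 33.8% of the 32851 windows in the table. The CHR element was present in those of Cks1b, Ccnb2 and Cdk1, and in 5252 of all windows. An E2F motif (TTTCCCGC, TTTGGCGC, TTTCGCGC or TTTGCCGC, either strand) was present in those of Cdk1 and Cdk2, and in 1.86% of all. These matches describe letters in a window, and a window without a match says nothing about the factor.

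Ccne1 encodes cyclin E1, a partner of Cdk2 at the start of S phase. The gene lies at chr7:38097984-38107534 on the minus strand. Its lowest, median and highest normalised counts were 123, 259 and 1150 in Val_LNA embryos and 284, 750 and 2855 in Ctrl_LNA embryos. The groups overlapped, with 9 of 16 Val_LNA embryos below every Ctrl_LNA embryo and 3 Ctrl_LNA embryos above every Val_LNA embryo. The highest Val_LNA embryos were Val_LNA 6, 5 and 7 with 1150, 789.8 and 596 counts. Expression fell by 1.28 ± 0.31 on the log2 scale (SE; limma adjusted p = 0.0183), and by 1.15 ± 0.28 without Ctrl_LNA 48, which had the highest count (limma adjusted p = 0.0133). It was lower in each run taken alone, by values that did not pass there, -0.98 in the lower (limma adjusted p = 0.437) and -1.58 in the upper run (limma adjusted p = 0.163). Other settings also ended the call, with -1.05 in edgeR's quasi-likelihood test without Ctrl_LNA 48 (adjusted p = 0.0614; 0.54% of genes called higher and 1.61% lower) and -1.73 with each embryo scaled to its median gene (limma adjusted p = 0.108, against 0.0095 without Ctrl_LNA 48).

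Ccne2 encodes cyclin E2, which shares the role of cyclin E1 in mice, and lies at chr4:11191351-11204779 on the plus strand. Its lowest, median and highest counts were 112, 491 and 727 in Val_LNA embryos, against 130, 380 and 964 in Ctrl_LNA embryos, so the groups covered nearly the same range. The log2 fold change was 0.03 ± 0.33 (limma adjusted p = 0.973, 95% interval -0.65 to 0.71), and its sign changed with the scaling. Within an embryo the log2 ratio of Ccne1 to Ccne2 averaged -0.34 ± 1.59 over the 16 Val_LNA embryos and 0.97 ± 0.94 over the 16 Ctrl_LNA embryos (SD). This ratio is of counts not divided by transcript length, so its sign does not say which of the genes had the higher level. Its median was -0.60 in Val_LNA and 1.16 in Ctrl_LNA, and the difference of -1.31 passed the permutation test (adjusted p = 0.0199). In the upper run the difference was -1.92 (exact permutation, adjusted p = 0.0025), with 0 of 8 Val_LNA embryos above the Ctrl_LNA median of that run. In the lower run it was -0.70 (exact permutation, adjusted p = 0.499).

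The mitotic cyclins did not pass the test. Ccnb1, the B-type cyclin without which mouse embryos stop in the first divisions, had lowest, median and highest counts of 4434, 7117 and 10709 in Val_LNA embryos, against 6062, 8804 and 14645 in Ctrl_LNA embryos. Although 14 of 16 Val_LNA embryos lay below the Ctrl_LNA median, the difference was small, -0.26 ± 0.11 on the log2 scale (limma p = 0.0225 before and 0.254 after adjustment). Ccna2, needed for S phase and mitosis, had 1751, 3154 and 5092 in Val_LNA and 1932, 3190 and 6203 in Ctrl_LNA embryos. Its log2 fold change of -0.15 ± 0.14 had a 95% interval of -0.44 to 0.14 (limma adjusted p = 0.614), the second narrowest among the members after that of Ccnb1.

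Ccnb2, a B-type cyclin that mice can live without and that also acts in oocyte meiosis, varied far more between embryos than Ccnb1. Its lowest, median and highest counts were 176, 448 and 1986 in Val_LNA embryos and 2.10, 346 and 1610 in Ctrl_LNA embryos, and the lowest was Ctrl_LNA 48. Without that embryo the lowest Ctrl_LNA count was 63.6, and the log2 fold change was 0.18 ± 0.36, against 0.63 ± 0.54 with it (limma adjusted p = 0.837 without and 0.586 with it). A processed copy, Ccnb2-ps, had medians of 5.46 in Val_LNA and 6.47 in Ctrl_LNA embryos, and the labels do not say how reads that fit both were assigned.

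The kinases differed from each other in how even they were. Cdk1, the mitotic kinase, had lowest, median and highest counts of 443, 2130 and 2729 in Val_LNA embryos and 1205, 1858 and 2949 in Ctrl_LNA embryos, which overlapped throughout. Its log2 fold change was 0.0018 ± 0.18 (limma adjusted p = 0.997, 95% interval -0.37 to 0.37). Cdk2, the partner of E-type cyclins and one needed for meiosis, had 41.1, 719 and 1103 in Val_LNA embryos and 480, 668 and 4590 in Ctrl_LNA embryos. For Cdk2, single embryos set both ends, since Val_LNA 14 held 41.1 and Ctrl_LNA 48 held 4590, and without Ctrl_LNA 48 the highest Ctrl_LNA count was 1015. The Cdk2 log2 fold change of -0.51 ± 0.33 did not pass (limma adjusted p = 0.466), and it was -0.34 ± 0.29 without Ctrl_LNA 48 and -0.26 ± 0.24 without Val_LNA 14. Val_LNA 14 also had the lowest Cdk1 count of all embryos and the highest Cks2 and Wee2 counts.

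Wee2, an inhibitory kinase of Cdk1 known in mice mainly from oocytes, where it maintains meiotic arrest, varied widely in both groups. Its lowest, median and highest counts were 909, 5063 and 15783 in Val_LNA embryos and 870, 3479 and 12899 in Ctrl_LNA embryos. The log2 fold change of 0.65 ± 0.42 did not pass (limma adjusted p = 0.456), and the groups overlapped almost completely. The log2 fold change was 0.08 in the lower and 1.23 in the upper run, a difference that did not pass (limma interaction 1.15 ± 0.79, adjusted p = 0.817), and inside Ctrl_LNA the upper run was lower by a log2 change of -1.35 ± 0.52 (limma adjusted p = 0.535). No gene in the whole table passed the test of a difference between the runs, at 0 called by limma and 808 with an unadjusted p under 0.05.

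**Figure D2:**
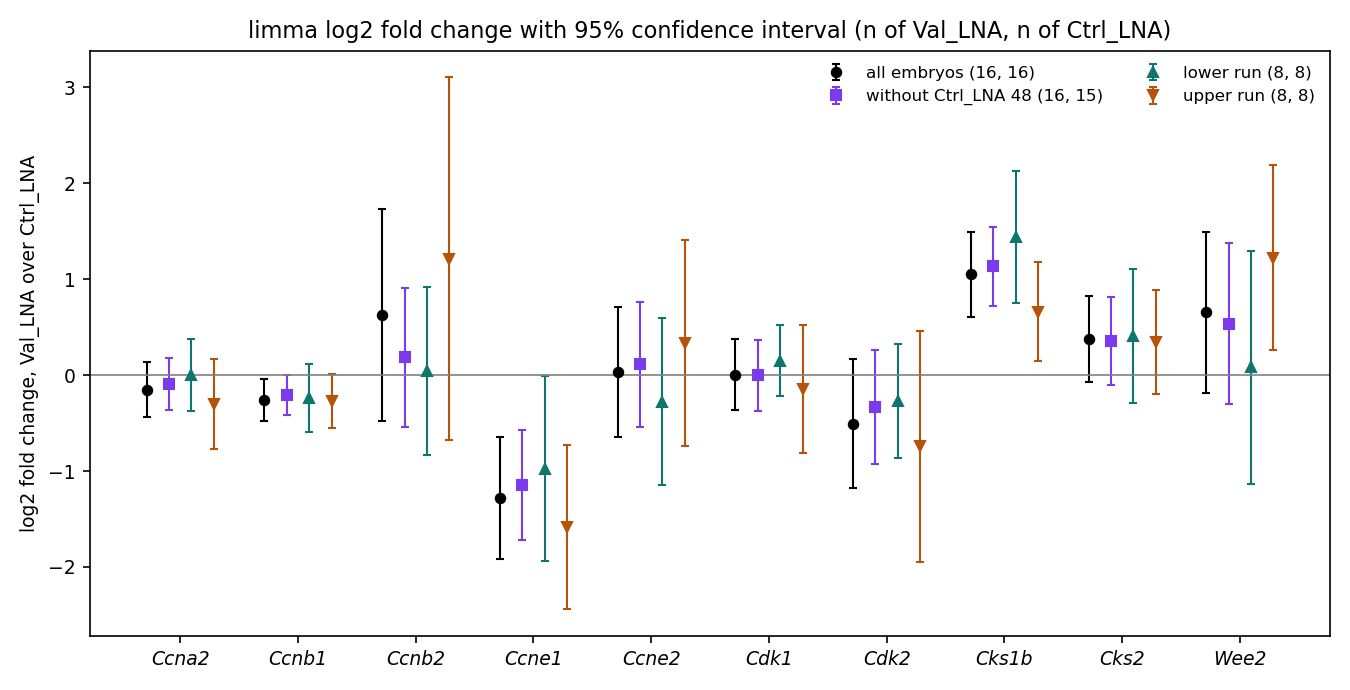
Limma log2 fold change, Val_LNA over Ctrl_LNA, with its 95% confidence interval for each member, in all embryos, without Ctrl_LNA 48 and within each run of library numbers. Cks1b lay above 0 and Ccne1 below 0 in all 4, while the interval of Ccnb2 narrowed without Ctrl_LNA 48.

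Per kilobase of a single annotated transcript for each gene, the order of mean levels in Val_LNA embryos was Cks2, Ccnb1, Wee2, Cks1b, Ccna2, Cdk1, Ccnb2, Cdk2, Ccne1 and Ccne2. In Ctrl_LNA embryos it was Cks2, Ccnb1, Wee2, Ccna2, Cks1b, Cdk1, Ccne1, Cdk2, Ccnb2 and Ccne2. Cks2 averaged 5463 ± 2585 normalised counts per kb over the 16 Val_LNA embryos and 4099 ± 1799 over the 16 Ctrl_LNA embryos (SD), above 99.9% of the 12724 tested genes with such a length in each group. At the low end Ccne2 averaged 143 ± 68.4 per kb in Val_LNA and 147 ± 94.2 in Ctrl_LNA embryos. In Val_LNA the steps from Cks2 to Ccnb1, from Cks1b to Ccna2 and from Ccna2 to Cdk1 exceeded the larger SD of the neighbours on the log2 scale, and no other step did. In Ctrl_LNA the steps from Ccnb1 to Wee2 and from Cks1b to Cdk1 did, and no other. Without Ctrl_LNA 48 the step from Cdk2 to Ccne2 did as well, and Ccnb2 ranked above Cdk2. With the length of all annotated exons in place of 1 transcript, Cdk2 ranked 10 in Val_LNA and 9 in Ctrl_LNA.

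Within each group some pairs of members varied together. Of 45 pairs, 13 passed in Val_LNA (8 positive and 5 negative) and 9 in Ctrl_LNA without embryo 48 (6 positive and 3 negative). The test used Pearson's r of log2 values, with permutation p and adjustment over the 90 tests. How many pairs of other genes would pass was not measured, so these counts do not set the members apart. The 4 pairs that passed in both groups were Ccnb2 with Cks2, Ccnb2 with Wee2, Ccne2 with Wee2 and Cks2 with Wee2. Leaving out the 2 embryos farthest from the median of the first-named gene, with the adjustment kept, left 6 pairs in Val_LNA and 5 in Ctrl_LNA. None of the 4 shared pairs then passed in both groups. Their permutation p before adjustment was 0.0093, 0.0433 and 0.0243 in Val_LNA for the first 3. For Cks2 with Wee2 it was 0.0428 in Ctrl_LNA.

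In Val_LNA embryos Cks1b, Cks2 and Wee2 varied together. Cks1b and Cks2 had r = 0.93 (permutation adjusted p = 0.000225) and Spearman's rho = 0.91 (permutation adjusted p = 0.00036) over 16 embryos, with r = 0.92 after leaving out the 2 farthest embryos, and 0.93 in the lower and 0.96 in the upper run. In 15 Ctrl_LNA embryos the same pair had r = -0.01 and rho = 0.16 (permutation adjusted p = 0.965 and 0.684), with 0.30 after leaving out 2, and -0.03 and 0.40 in the runs. Cks1b and Wee2 had r = 0.90 and rho = 0.90 in Val_LNA (permutation adjusted p = 0.000225 and 0.00036), and r = 0.90 after leaving out 2. In the lower and upper run of Val_LNA r was 0.91 and 0.88. There rho was 0.76 and 0.67 (exact permutation p = 0.0368 and 0.0831 before adjustment). The same pair had r = -0.52 and rho = -0.34 in Ctrl_LNA (permutation adjusted p = 0.0973 and 0.351). The Ctrl_LNA value rested on Ctrl_LNA 32 and 34, which had the 2 lowest Cks1b and the 2 highest Wee2 counts of their group, and it was 0.05 after leaving out the 2 farthest embryos. In Ctrl_LNA the runs gave -0.63 and 0.00.

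Cdk2 ran against this trio in Val_LNA embryos. Its r was -0.69 with Cks1b, -0.73 with Cks2 and -0.73 with Wee2, and its rho -0.82, -0.87 and -0.90 (permutation adjusted p at most 0.0036). After leaving out the 2 farthest embryos r was -0.72, -0.83 and -0.81. In Ctrl_LNA the same pairs had r = 0.19, 0.26 and -0.05 and rho = 0.15, 0.23 and -0.01, and none passed (permutation adjusted p at least 0.527).

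Of the pairs that passed in both groups, Ccne2 and Wee2 had r = 0.69 and rho = 0.70 in Val_LNA (permutation adjusted p = 0.0147 and 0.0231) and r = 0.93 and rho = 0.88 in Ctrl_LNA embryos (permutation adjusted p = 0.000225 and 0.00036), with 0.58 in Val_LNA and 0.93 in Ctrl_LNA after leaving out the 2 farthest. Cks2 and Wee2 had r = 0.91 in Val_LNA and 0.67 in Ctrl_LNA, and rho = 0.90 in Val_LNA and 0.67 in Ctrl_LNA (permutation adjusted p at most 0.0356), and after leaving out the 2 farthest r was 0.89 in Val_LNA and 0.57 in Ctrl_LNA. The kinases Cdk1 and Cdk2 had r = 0.91 and rho = 0.51 in Val_LNA (permutation adjusted p = 0.00843 and 0.117), but r was 0.38 after leaving out the 2 farthest embryos, so that value rested on those embryos. In Ctrl_LNA this pair had r = 0.32 and rho = 0.34 (permutation adjusted p = 0.409 and 0.351). Whether a correlation differed between the groups was not tested pair by pair.

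**Figure D3:**
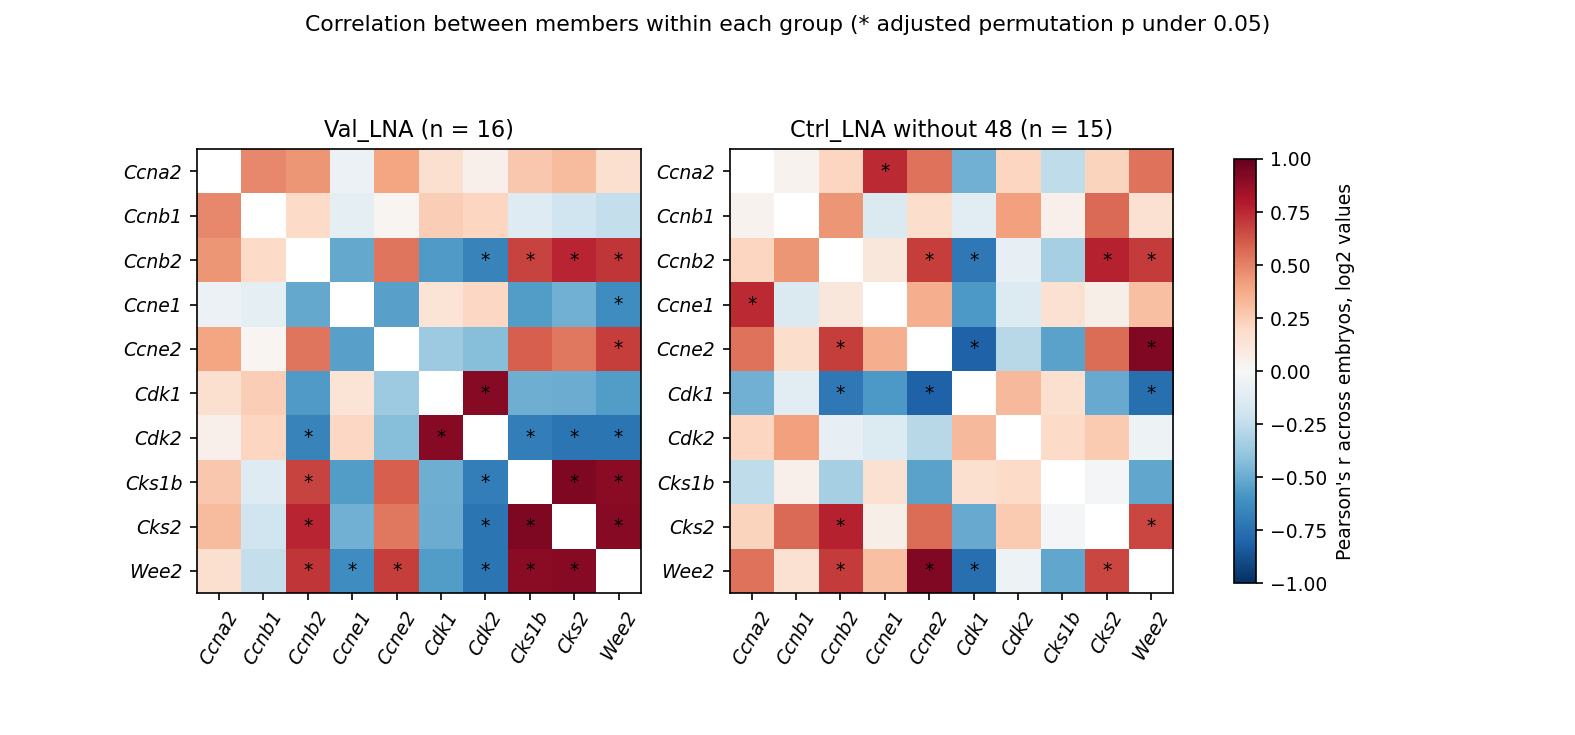
Pearson's r of log2(normalised count + 1) for each pair of members across the 16 Val_LNA embryos (left) and the 15 Ctrl_LNA embryos without embryo 48 (right). Asterisks mark a permutation p under 0.05 after adjustment over the 90 tests, 13 pairs on the left and 9 on the right.

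Each member was also set against the level of other transcripts known from the oocyte. The summed count of 19 oocyte transcripts, among them Gdf9, Bmp15 and the zona pellucida genes and none of the members, had a median of 45889 in Val_LNA and 45903 in Ctrl_LNA embryos. Genes with high counts weighed most in it, such as Omt2a with a mean of 8037 in Val_LNA and 6158 in Ctrl_LNA embryos. Similar medians do not mean that each gene was alike. Btg4 averaged 7044 in Val_LNA and 4458 in Ctrl_LNA embryos, and Omt2b 5186 in Val_LNA and 8616 in Ctrl_LNA embryos. How many of the other genes vary with this sum was not counted. For this relation, the 2 farthest embryos are those farthest from the median of the sum. Wee2 was higher where this sum was higher in both groups, with r = 0.92 and rho = 0.96 in Val_LNA (permutation adjusted p = 6.67e-05 and 0.0001, both from 1e-05, the smallest that the resamples can give, adjusted over 20 tests) and r = 0.88 and rho = 0.83 in Ctrl_LNA (permutation adjusted p = 0.00032 and 0.000967). Cks2 did so as well, with r = 0.92 and rho = 0.93 in Val_LNA and r = 0.84 and rho = 0.84 in Ctrl_LNA (permutation adjusted p at most 0.00084). After leaving out the 2 farthest embryos r was 0.93 in Val_LNA and 0.88 in Ctrl_LNA for Wee2, and 0.94 in Val_LNA and 0.73 in Ctrl_LNA for Cks2.

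Ccnb2 was also higher with the sum, with r = 0.78 and rho = 0.77 in Val_LNA (permutation adjusted p = 0.000825 and 0.0022) and r = 0.76 and rho = 0.73 in Ctrl_LNA (permutation adjusted p = 0.00104 and 0.0072), and r was 0.63 in Val_LNA and 0.60 in Ctrl_LNA without the 2 farthest embryos. Cdk1 was lower with it, with r = -0.76 and rho = -0.55 in Val_LNA (permutation adjusted p = 0.00192 and 0.0475) and r = -0.74 and rho = -0.62 in Ctrl_LNA (permutation adjusted p = 0.00369 and 0.0291). Without the 2 farthest embryos r for Cdk1 was -0.40 in Val_LNA, where the relation rested on those embryos, and -0.65 in Ctrl_LNA. Ccne2 had r = 0.54 and rho = 0.67 in Val_LNA (permutation adjusted p = 0.0545 and 0.0114) and r = 0.83 and rho = 0.82 in Ctrl_LNA (permutation adjusted p = 0.000825 and 0.00117), and r was 0.47 in Val_LNA and 0.75 in Ctrl_LNA without the 2 farthest embryos. Ccna2, Ccnb1 and Ccne1 passed in neither group, with r between -0.43 and 0.40.

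Cks1b and Cdk2 passed in Val_LNA and not in Ctrl_LNA. Cks1b had r = 0.86 and rho = 0.87 in Val_LNA (permutation adjusted p = 0.00015 and 0.00025), against r = -0.22 and rho = 0.06 in Ctrl_LNA (permutation adjusted p = 0.477 and 0.834). Cdk2 ran the other way in Val_LNA, with r = -0.89 and rho = -0.86 (permutation adjusted p = 6.67e-05 and 0.0002), and r was -0.85 without the 2 farthest embryos, as it was 0.84 for Cks1b. In Ctrl_LNA Cdk2 had r = -0.13 and rho = -0.16 (permutation adjusted p = 0.644 and 0.642). Within the lower and upper run of Val_LNA, r was -0.92 and -0.96 for Cdk2 and 0.90 and 0.89 for Cks1b. There rho was -0.86 and -0.52 for Cdk2 (exact permutation p = 0.0107 and 0.197 before adjustment). For Cks1b rho was 0.71 and 0.62 (exact permutation p = 0.0576 and 0.115 before adjustment). The upper run holds Val_LNA 14, which had the highest oocyte sum and the lowest Cdk2 count of all embryos. In the runs of Ctrl_LNA r was -0.10 and -0.05 for Cdk2 and -0.35 and 0.35 for Cks1b.

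The difference of these slopes between the groups was tested for every gene. Without Ctrl_LNA 48, Cdk2 changed by -2.10 log2 units per doubling of the oocyte sum in Val_LNA and by -0.08 in Ctrl_LNA embryos, a difference of -2.02 ± 0.34 (limma interaction, adjusted p = 0.0098), in a test that called 0.309% of the 15559 genes in either direction. This call rested on Val_LNA 14, without which the difference was -1.25 (limma adjusted p = 0.0702), and with all 32 embryos it was -2.19 ± 0.50 (limma adjusted p = 0.188, 0.00643% of genes called). For Cks1b the slopes were 0.78 in Val_LNA and -0.31 in Ctrl_LNA, and the difference of 1.09 ± 0.38 did not pass (limma adjusted p = 0.248). With the oocyte sum as a covariate the group difference was 1.01 ± 0.21 for Cks1b (limma adjusted p = 0.0037) and -1.27 ± 0.31 for Ccne1 (limma adjusted p = 0.0179), close to the values without it. Without Ctrl_LNA 48 they were 1.10 and -1.12 (limma adjusted p = 0.0004 and 0.0129), where 2.75% of genes were called higher and 3.28% lower.

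**Figure D4:**
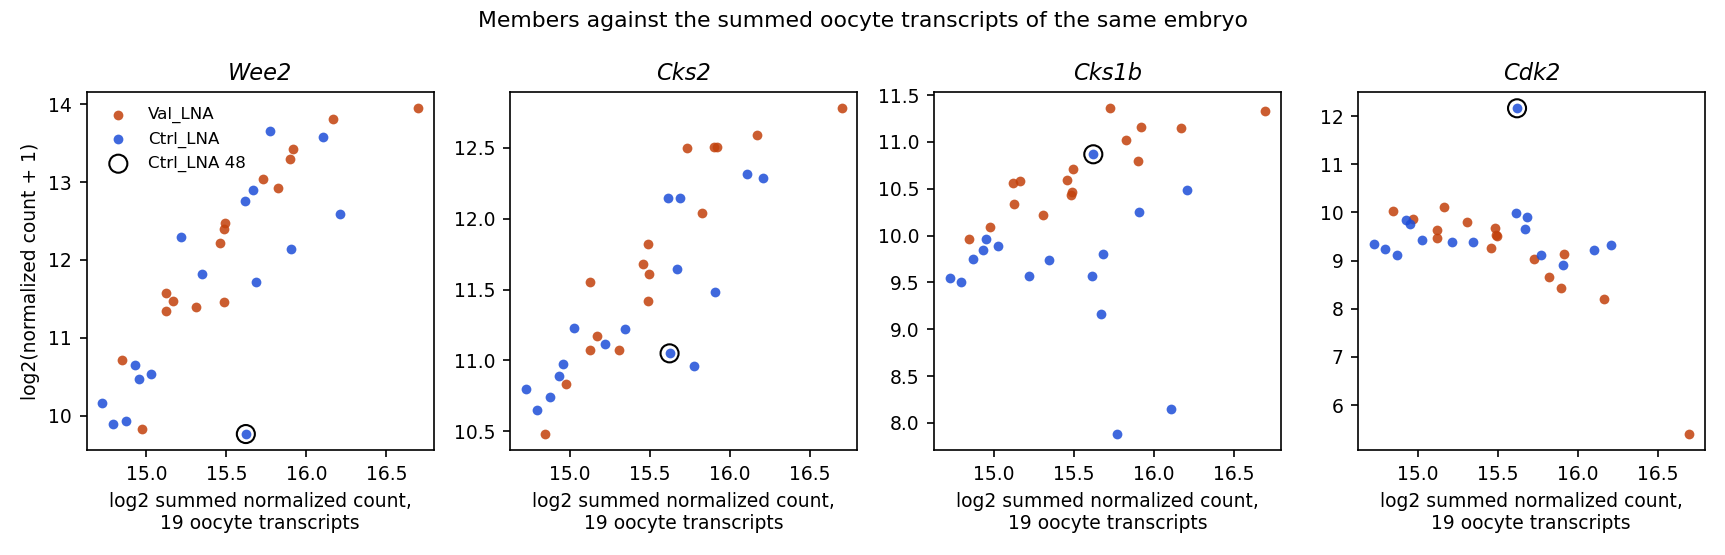
Log2(normalised count + 1) of Wee2, Cks2, Cks1b and Cdk2 against the log2 summed normalised count of 19 oocyte transcripts in the same embryo, in 16 Val_LNA and 16 Ctrl_LNA embryos, with Ctrl_LNA 48 ringed. Wee2 and Cks2 climbed along the axis in both groups, Cks1b did so in Val_LNA, and the lowest Cdk2 point is Val_LNA 14 with a count of 41.1.

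Messages stored in the egg are known to be activated through a cytoplasmic polyadenylation element (CPE) close to the end of the 3′ UTR. Such an element, TTTTAT or TTTTAAT in the last 100 bases of the annotated transcript, was found in 5 of the 10 members and in 17.9% of 19428 genes. The sites of these 5, Wee2, Cks2, Cks1b, Cdk2 and Ccne1, are shown because they are all the members with the element. The element was not found in Ccnb2, Cdk1, Ccne2, Ccna2 and Ccnb1. Whether its presence goes with the relation of a member to the oocyte sum was not tested. The sequences come from GENCODE M21 transcripts, with the element in capitals.
Wee2: tgtaaataaagaTTTTATcttatccaaaga
Cks2: tataaatgcctgTTTTATtttacctgtttt
Cks1b: ttgattaaaggaagttTTTTATaatcttaa
Cdk2: TTTTATgattttcttctcccactccctgtc
Ccne1: atgtctatcaatTTTTAATaaagataatac
These are letters in a window, and whether any of these sites was used in the embryos was not measured.

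Some members share exonic bases with a gene on the opposite strand, and the library protocol does not mark the strand. Ccna2 overlaps Exosc9 by 428 bases, Ccne2 overlaps Ints8 by 474 and Cdk2 overlaps Pmel by 34. None of these neighbours passed the test, with limma log2 fold changes of 0.38 for Exosc9, 0.06 for Ints8 and -1.18 for Pmel, whose medians were 30.5 in Val_LNA and 62.1 in Ctrl_LNA embryos.

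Among 112 other tested cell cycle genes, sorted by role, 2 rose, 1 fell and 109 did not pass, beside 0.881% higher and 1.31% lower over all tested genes, and the shares of the list lay near those. Both that rose belong to the Rb and E2f group, which holds the pocket proteins that restrain S phase genes and their E2f and Dp partners. Rb1 had lowest, median and highest counts of 228, 538 and 779 in Val_LNA embryos and 0, 106 and 509 in Ctrl_LNA embryos, and all 16 Val_LNA embryos lay above the Ctrl_LNA median. Its log2 fold change was 2.50 ± 0.55 (limma adjusted p = 0.0072), and 2.07 ± 0.37 without Ctrl_LNA 48, the embryo at 0. Tfdp1, the Dp1 partner of E2f proteins, had 197, 472 and 1030 in Val_LNA embryos and 18.96, 108 and 752 in Ctrl_LNA embryos. The log2 fold change of Tfdp1 was 1.75 ± 0.39 (limma adjusted p = 0.0088). Rb1 had 2.94 in the lower and 2.07 in the upper run (limma adjusted p = 0.0019 and 0.479), and 1.08 in the upper run without Ctrl_LNA 48 (limma adjusted p = 0.259). Tfdp1 had 2.84 in the lower and 0.66 in the upper run (limma adjusted p = 0.0005 and 0.583). In edgeR's quasi-likelihood test with all embryos neither passed, with log2 fold changes of 1.54 for Rb1 (adjusted p = 0.0892) and 1.14 for Tfdp1 (adjusted p = 0.148). Without Ctrl_LNA 48 that test called both (adjusted p = 0.0292 for Rb1 and 0.0239 for Tfdp1).

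In the same role, 13 of 15 tested genes had a positive and 2 a negative log2 fold change, where 64.3% of all tested genes were positive, and the median was 0.76, where that of all genes was 0.26. The median of the role was 0.52 without Ctrl_LNA 48, 0.37 in edgeR, with 11 of 15 positive, and 0.35 in edgeR without Ctrl_LNA 48. In the same fits the medians of all tested genes were 0.07, 0.04 and 0.02, with 54.2%, 52.7% and 51.6% positive. The other E2f genes in this role, E2f1, E2f2, E2f4, E2f5, E2f7 and E2f8, lay between 0.40 and 1.61 in limma with all embryos, and none passed. Lin52, a subunit of the DREAM complex, had -1.20 ± 0.43 (limma adjusted p = 0.166), and was called lower by edgeR with all embryos (adjusted p = 0.0204). Without Ctrl_LNA 48 edgeR called 0 genes of this role lower, as did DESeq2 with all embryos.

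The gene that fell was Ccnf, which encodes cyclin F, a ubiquitin ligase subunit that binds no Cdk. Its counts were 171, 460 and 920 at the lowest, median and highest in Val_LNA embryos and 464, 890 and 2520 in Ctrl_LNA embryos, with 15 of 16 Val_LNA embryos below the Ctrl_LNA median. It fell by 1.08 ± 0.26 on the log2 scale (limma adjusted p = 0.0136). Without Ctrl_LNA 48, Cdk12, a kinase of RNA polymerase II, and Anapc10, a subunit of the anaphase-promoting complex, were called lower too, which made 3 of 112 where 2.63% of all tested genes were called lower, with log2 fold changes of -0.57 ± 0.16 and -1.06 ± 0.30 (limma adjusted p = 0.0387 and 0.0391).

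In roles without a call in either fit, the smallest p belonged to Cdkn2c among Cdk inhibitors (log2 fold change 0.85 ± 0.71), Fbxw11 among SCF ubiquitin ligase genes (0.65 ± 0.33), Chek2 among Wee1, Myt1 and Cdc25 genes with their regulators (-0.92 ± 0.48) and Ppp2ca among mitotic entry kinases and Greatwall partners (0.96 ± 0.36). Their limma adjusted p lay between 0.193 and 0.575. Ccna1, Cdk18, Cdk3-ps, E2f3 and E2f6 were measured and did not pass the filter on low values.

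**Figure D5:**
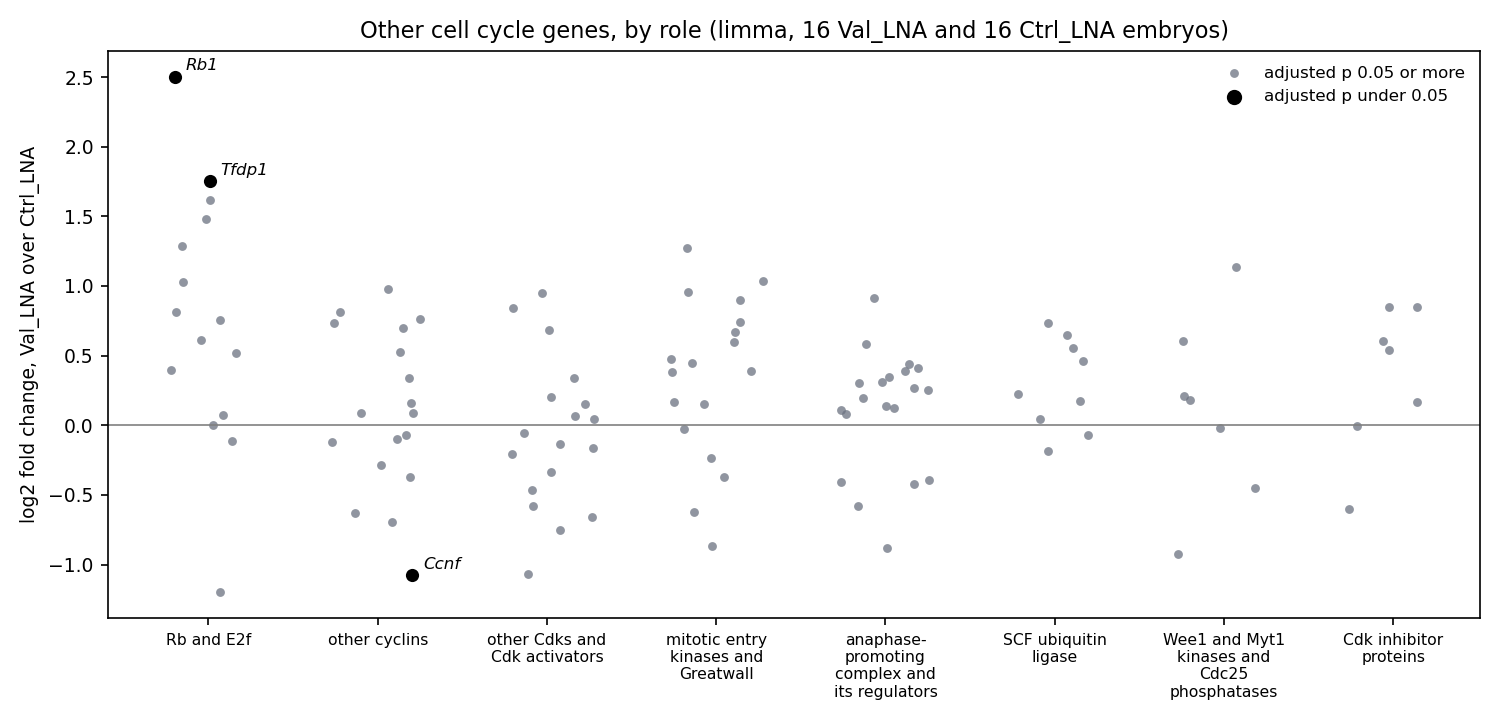
Limma log2 fold change, Val_LNA over Ctrl_LNA, of 112 other cell cycle genes by role, 1 point for each gene. Large black points are the 3 genes with an adjusted p under 0.05, Rb1 and Tfdp1 above 0 and Ccnf below 0.

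For the called members, the genes with the most similar pattern across embryos were found by Spearman's rho of log2 values centred within each group, over 31 embryos without Ctrl_LNA 48 and 8298 candidate genes. For Cks1b they were Cs (rho = 0.82), Bmp2k (0.81) and Brdt (0.80), whose limma log2 fold changes were 1.64, 1.69 and 1.65 (adjusted p = 0.217, 0.0111 and 0.0007). For Ccne1 they were Ankrd54 (rho = 0.77), Rfng (0.71) and Srsf10 (0.71). Their limma log2 fold changes were -1.76, -0.04 and -1.42 (adjusted p = 0.112, 0.978 and 2.97e-06). The rho values describe likeness over the same libraries and carry no test.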

How the data were processed

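Polyadenylated RNA of 32 single embryos was sequenced after template switching and 20 PCR cycles, per the labels' protocols. The protocols mention no molecular identifiers, and PCR copies are thus counted among the reads. The submitters' processing notes name mm10 and, in no stated order, Bowtie2, STAR, SAMtools and DESeq2, while the sources give no version and no annotation. The deposited signal per gene and embryo is a gene count that the authors divided by a DESeq size factor, per the file headers. The size factors, each a ratio, were deposited beside it. Their product came out whole for 1095136 of 1095136 values (100%), at most 0.0086 from a whole number. These reads entered edgeR 4.0.16 and DESeq2 1.42.0, as alternatives. Genes called higher numbered 29 with edgeR and 207 with DESeq2, and genes called lower 163 with edgeR and 340 with DESeq2. Among 240 library pairs inside a group, chi-square per gene was at least 17.4, so none looked deposited more than once.

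Differences were fitted with limma 3.58.1 (R 4.3.3, trend and robust empirical Bayes) to log2(normalised count + 1), for all 15559 genes together. A log2 fold change is a difference of group means on that scale, Val_LNA minus Ctrl_LNA, and a fold of mean counts can differ from it. The added 1 shrinks changes of low genes. Two-sided permutation tests used 100000 resamples, or all arrangements in groups under 10 (scipy 1.17.1). The fits were tested on simulated data. Coordinates are from GENCODE M21, which matched 34179 of 34223 identifiers (99.9%), and promoters from RefSeq. The members, the lists and the rule for named genes were chosen with earlier results of these data known. The rule named all members, called genes of the wider list, the smallest p of roles without a call, and the 3 genes most like each called member. The E2f genes, Lin52 and the overlapping neighbours were named after their values were seen.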

Additional observations from a re-analysis of the deposited data

How the results depend on the processing

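Cks1b and Ccne1 were called under all 32 fits that left out 1 embryo, with log2 fold changes of 0.93 to 1.13 and -1.41 to -1.15. Over all genes, leaving out 1 embryo gave 100 to 245 higher and 176 to 409 lower calls, and 1 to 3 lower calls in the wider cell cycle list. No paired analysis was possible because the groups share no library number. The count of members called was 0 in both directions when embryos were centred on the median gene, in the upper run, and in the upper run without Ctrl_LNA 48, and 0 lower in the lower run and in edgeR without Ctrl_LNA 48. The wider list gave, higher and lower, 0 and 2 in edgeR, 1 and 0 after centring, 0 and 0 in the upper run with or without Ctrl_LNA 48, and 4 and 3 with the oocyte sum as a covariate without Ctrl_LNA 48. Its lower calls alone were 2 in DESeq2, 3 without Ctrl_LNA 48, 2 after centring without Ctrl_LNA 48 and 0 in the lower run. Over all genes, against 137 higher and 204 lower, the counts were 207 and 340 in DESeq2, 245 and 409 without Ctrl_LNA 48, 2 and 33 in the upper run, 7 and 124 there without Ctrl_LNA 48, and 428 and 510 with the covariate. Higher calls alone were 29 in edgeR, 84 there without Ctrl_LNA 48, 87 with no filter and 61 after centring, and lower calls alone 83 in the lower run and 433 after centring without Ctrl_LNA 48. Signs changed for 5 members, none of them called. Ccna2 had 0.00079 in the lower run, Ccnb2 -0.069 with the covariate without Ctrl_LNA 48, and Cks2 -0.075 after centring. Ccne2 had -0.10 in edgeR, -0.035 in DESeq2, -0.42 after centring, -0.055 with TMM scaling, -0.28 in the lower run, and -0.16 and -0.086 with the covariate, with and without Ctrl_LNA 48, and -0.068 to 0.14 when leaving out 1 embryo. Cdk1 had -0.0093 in edgeR, -0.0041 without Ctrl_LNA 48, -0.016 in edgeR without it, -0.45 after centring, -0.083 with TMM, -0.15 in the upper run, -0.17 there without Ctrl_LNA 48, -0.072 after centring without it, and -0.045 to 0.14 when leaving out 1 embryo. The Cks1b to Cks2 ratio difference lost its call in the lower run (1.03), in the upper run (0.32) and there without Ctrl_LNA 48 (0.47), and that of Ccne1 to Ccne2 in the lower run (-0.70). Correlated pairs that passed numbered 6 in Val_LNA and 5 in Ctrl_LNA without the 2 farthest embryos. The causes of these changes were not tested, and the fits within a run held fewer embryos. The covariate, the fits of the upper run without Ctrl_LNA 48, and the slopes were chosen after seeing the data.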
